A study of Rattus norvegicus with 8 samples.

Results

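Potassium channel genes were followed across sciatic nerve, spinal cord and cultured Schwann cells of the rat. The members were all genes whose RefSeq symbol begins with Kcn and that had a probe in the authors' value table, 82 of 12764 genes. They fell into 19 subfamilies by symbol, and where a gene had several probes the one with the highest mean over the 8 samples stood for it. RefSeq listed 96 such symbols, of which 89 had a probe on the array. For 7 of these (Kcna10, Kcnf1, Kcnj15, Kcnj4, Kcnk15, Kcnk18 and Kcnk9) no probe was in the value table, and for 7 more (Kcnd2l1, Kcnk16-ps1, Kcnk6-ps1, Kcnk7, Kcnq5 and Kcnu1 among them) no probe was matched. The study asked how injured nerve, and Schwann cells given the inflammatory proteins S100A8 and S100A9, differ in gene expression from their controls.

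Each of the 8 samples was 1 group with 1 array, a 1-colour Agilent array hybridised with Cy3-labelled copies of 50 ng of total RNA, so the differences lack a replicate check and carry no p-value. The nerve samples came from adult female Sprague-Dawley rats whose left sciatic nerve was cut at mid-thigh: the distal segment, the proximal segment and the contralateral right nerve, all of day 1, the last with a label that mentions a PBS injection site. The cord samples, of day 5 and of the same strain, bore the labels dorsal hemisection and, for the control, C-level. An injection is named on the labels but an injury in the protocol, and neither says whether dorsal hemisection means a lesion or a dissected piece. Each nerve and cord sample pooled 3 animals. The Schwann cells, glia that wrap peripheral axons, were primary cultures from nerves of Sprague-Dawley pups at postnatal days 1 to 3, with a stated purity over 99%, used at passages 3 to 7 and grown with serum, pituitary extract and forskolin. They were left unstimulated for 24 h, or were given S100A8/A9 at 5 µg/ml for 1 h or for 24 h, so the 24 h control stood against both times.

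Potassium channels let potassium ions leave or enter cells, set the resting potential and end action potentials. Voltage-gated channels (Kcna to Kcnd, Kcnh and Kcnq, with the silent partners Kcng, Kcns and Kcnv) open on depolarisation, inward rectifiers (Kcnj) hold the resting potential and take up potassium into glia, and tandem-pore channels (Kcnk) carry leak currents. In myelinated axons, channels of Kcna1, Kcna2 and the auxiliary subunit Kcnab2 lie beside the node of Ranvier under the myelin sheath, and, in rodents, channels of Kcnk2 and Kcnk4 lie at the node itself. Calcium-activated channels (Kcnma1 with its Kcnmb subunits, and Kcnn) couple calcium entry to repolarisation, and Kcnn4 is best known from leukocytes and red blood cells.

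All levels are log2 values of the authors' table under its own column headings. By rank, 7 of its 8 columns matched a scan recorded under another sample, so every direction below rests on the headings. Under the samples that the scans are recorded for, 91 of 145 differences of named members changed direction. By the column headings, neuron markers were higher in cord than in nerve for 7 of 7 genes (median log2 difference 7.42) and astrocyte markers for 5 of 5 (6.73). Markers of myelinating Schwann cells were lower in cord than in nerve for 4 of 4 genes (-4.16) and in cultured Schwann cells for 3 of 4 (-3.26). Leukocyte markers were lower in the cultures than in nerve for 6 of 6 (-6.13). The share of probes well above background ran from 66.7% to 77.6% over the arrays, and arrays ranked probes more alike within a tissue (rho across probes 0.951 to 0.993) than between tissues (0.797 to 0.903). A difference between 2 samples was called when it reached 2-fold, a log2 difference of 1, in a gene well above background on at least 1 of the 2 arrays. Between tissues it was called when the means differed at least 2-fold and the columns did not overlap. These columns differ in treatment and are not replicates. An array not well above background entered a difference at the lowest signal among its probes well above background, or at the gene's own value where that was higher. When this applied to 1 of 2 arrays, or to every array of a tissue, the difference is a bound, written as at least or at most. For Kcnh5 and Kcnab3 in Schwann cells, Kcnj6 in cord and Kcnj2 in nerve, some arrays of the higher tissue entered this way too. Their tissue differences are treated as bounds but are not strict limits. The lowest signal used as a floor was 1.56 on the contralateral nerve array and 2.20 to 3.88 on the others. On the contralateral array Kcnj11 read 3.68 without being well above background. Bounds against the contralateral nerve are therefore not strict limits either. Where only some arrays of the lower tissue measured the gene, the difference rests in part on that floor and is a lower limit in size. Against nerve this holds in cord for Kcnk10, Kcnk4 and Kcnj11 (1 of 3 nerve arrays) and for Kcne5, Kcnip4, Kcnj16 and Kcnq3 (2 of 3), and in Schwann cells for Kcne1 and Kcnj11 (1 of 3) and Kcnmb1 (2 of 3). Errors after ± are technical, from repeated spots of similar brightness. In bulk samples, fewer cells of a type and less RNA per cell cannot be told apart.

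RefSeq promoters of 4 members, all higher in cord than in nerve but unlike in sequence, are shown, from 250 bases before to 50 bases after the start of the gene, from assembly GRCr8. Kcna2 encodes a channel of axons beside the node, Kcnc1 a fast channel of rapidly firing neurons, Kcnd2 an A-type channel of dendrites, and Kcnj16 a rectifier subunit of glia and kidney. Capitals mark the GC box GGGCGG, read on both strands, so that CCGCCC is the same box on the other strand. The regions are chr2:197393280-197393579 (+) for Kcna2, chr1:106038997-106039296 (+) for Kcnc1, chr4:50742235-50742534 (+) for Kcnd2 and chr10:96517074-96517373 (+) for Kcnj16.
Kcna2: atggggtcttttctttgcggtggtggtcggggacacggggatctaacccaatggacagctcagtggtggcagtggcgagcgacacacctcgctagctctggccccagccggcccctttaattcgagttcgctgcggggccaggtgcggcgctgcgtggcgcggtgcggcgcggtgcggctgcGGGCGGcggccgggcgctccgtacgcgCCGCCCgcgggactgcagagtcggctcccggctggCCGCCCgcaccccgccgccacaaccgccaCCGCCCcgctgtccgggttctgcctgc
Kcnc1: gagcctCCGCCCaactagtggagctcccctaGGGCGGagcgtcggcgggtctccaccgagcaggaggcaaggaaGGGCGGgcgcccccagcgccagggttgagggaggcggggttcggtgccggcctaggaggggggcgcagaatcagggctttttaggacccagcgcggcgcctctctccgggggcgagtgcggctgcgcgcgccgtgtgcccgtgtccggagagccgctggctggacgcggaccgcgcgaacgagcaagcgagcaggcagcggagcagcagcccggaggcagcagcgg
Kcnd2: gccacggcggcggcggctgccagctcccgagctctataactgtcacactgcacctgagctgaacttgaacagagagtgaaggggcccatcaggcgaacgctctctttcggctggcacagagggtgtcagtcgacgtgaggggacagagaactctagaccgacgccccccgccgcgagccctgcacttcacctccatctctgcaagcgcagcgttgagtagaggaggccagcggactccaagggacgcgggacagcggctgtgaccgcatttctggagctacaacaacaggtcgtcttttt
Kcnj16: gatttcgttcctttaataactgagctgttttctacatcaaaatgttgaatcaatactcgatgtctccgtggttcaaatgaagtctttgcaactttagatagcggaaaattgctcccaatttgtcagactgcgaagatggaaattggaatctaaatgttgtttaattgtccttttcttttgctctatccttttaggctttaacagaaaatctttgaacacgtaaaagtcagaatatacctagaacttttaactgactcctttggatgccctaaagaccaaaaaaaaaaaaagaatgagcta
The Kcna2 promoter held 4 boxes at 73.3% G and C, the Kcnc1 promoter 3 boxes at 74.0%, the Kcnd2 promoter no box at 61.7%, and the Kcnj16 promoter no box at 34.0%. RefSeq gave a promoter for 55 of the 82 members. The box was in 30 of these 55 (54.5%), against 36.0% of 27456 promoters of all genes. It was in 17 of 29 promoters of members higher in cord than in nerve (58.6%) and in 13 of 26 of the others (50.0%). The member promoters were also richer in G and C, at a median of 62.3% against 52.3% for all genes. Their median count of CG pairs was 15, against 7.5. The part of this base content in the share of boxes was not tested. A match describes the letters only and shows no bound factor.

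The members were seen unevenly in the 3 tissues. At least 1 array was well above background for 78 members in cord, for 50 in Schwann cells and for 69 in nerve. These are 95.1%, 61.0% and 84.1% of the members, beside 95.5%, 86.9% and 96.4% of all genes. All 8 arrays measured 38 members, and every member was measured on at least 1. No Schwann cell array was above background for 32 members, and for 29 of these both cord arrays were. For 10 members both cord arrays and no other array were above background, among them Kcnc1, Kcnd2, Kcnn2, Kcng4, Kcns1 and Kcnj5. These joint patterns were not counted over all genes. No nerve array was above background for 13 members, and no cord array for 4 (Kcng3, Kcnh5, Kcnj1 and Kcnj2). The heat map of members by sample shows this split by tissue.

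**Figure D1:**
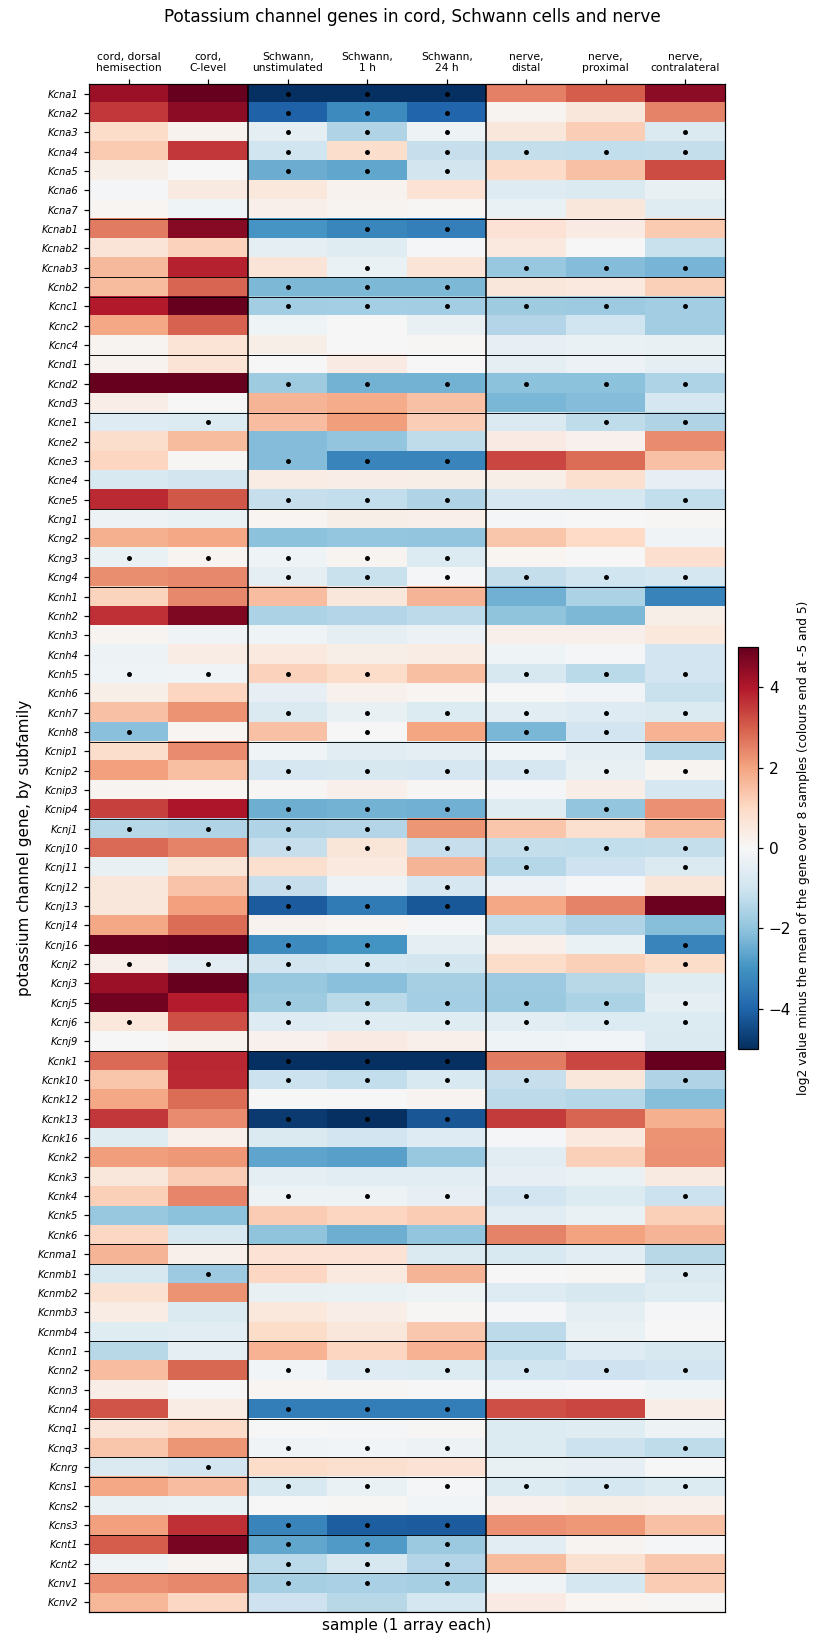
Log2 level of 79 of the 82 potassium channel genes (rows, by subfamily) in each of the 8 samples (columns, 1 array each), as a difference from the mean of the gene over the 8 samples, with dots where the gene was not well above background. Dots lie mostly in the Schwann cell columns, where 32 members have a dot in all 3, and red lies mostly in the cord columns.

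Many potassium channel genes were higher in cord than in nerve. Of 81 members measured, 41 were at least 2-fold higher in cord without overlap of the columns, beside a background of 15.2% of all genes, and 7 were lower, beside 15.2%. The members' median difference was 1.13 and that of all genes -0.16, and 13 of the 48 calls were bounds. Between the 2 control arrays, C-level cord minus contralateral nerve, 45 of 78 members were higher (background 18.6%) and 10 lower (background 19.8%), with a median of 1.26 beside -0.09 for all genes. The contralateral array and both cord arrays also enter the injury comparisons below.

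Among the voltage-gated Kcna genes, Kcna1 had log2 levels of 12.66 and 14.00 in dorsal hemisection and C-level cord, against 10.89, 11.41 and 12.87 in distal, proximal and contralateral nerve. The 2 tissues overlapped, and their means differed by 1.60. Kcna2, its partner beside the node, had 9.74 and 10.64 in dorsal hemisection and C-level cord, against 6.32, 6.76 and 8.68 in distal, proximal and contralateral nerve, a difference of 2.94 with no overlap. Kcna4, which makes a rapidly inactivating channel, had 4.15 and 6.38 in the cord samples and was not well above background in nerve (at least 3.15). Kcna5 went the other way, at 4.50 and 4.20 in dorsal hemisection and C-level cord, against 5.18, 5.69 and 7.49 in distal, proximal and contralateral nerve (-1.77). For Kcna6 the probe used gave 0.76 and the other probe 5.42. The auxiliary Kcnab genes, whose products bind Kcna channels from inside the cell, were higher in cord for 3 of 3: Kcnab1 by 2.77, Kcnab2 by 1.13 and Kcnab3 by at least 4.86. Kcnab1 had 9.79 and 11.75 in dorsal hemisection and C-level cord, against 7.90, 7.59 and 8.50 in distal, proximal and contralateral nerve.

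Genes of fast repolarising channels showed some of the largest tissue differences. Kcnc1 had 7.44 and 10.02 in dorsal hemisection and C-level cord and was not well above background on any other array, at least 6.58 above nerve. Kcnc2 was 3.85 higher in cord, and 7.31 higher by its other probe. Kcnc4 stood at 0.78, within 2-fold. Kcnd2, of the A-type channels, had 9.54 and 10.55 in dorsal hemisection and C-level cord and was not well above background elsewhere (at least 7.68 above nerve). Its relative Kcnd3 was 1.93 higher in cord, and Kcnd1 stood at 0.84. Of the Kcnip genes, whose calcium-binding products attach to Kcnd channels, Kcnip4 (3.82), Kcnip1 (2.32) and Kcnip2 (at least 1.90) were higher in cord, and Kcnip3 stood at 0.32. The delayed rectifier gene Kcnb2 (1.49) was higher too. Of the silent subunits, which modify Kcnb channels, Kcng4 (at least 3.01), Kcns1 (at least 2.49), Kcnv1 (2.28), Kcnv2 (1.18) and Kcng2 (1.13) were higher in cord. Kcns3 (0.89), Kcng1 (-0.29) and Kcns2 (-0.60) were not called, and the other probe of Kcng1 gave 3.33. Kcng3 was not well above background in cord.

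The Kcnh channels, relatives of ether-a-go-go, were higher in cord for 4 of 7 genes measured: Kcnh2 by 5.48, Kcnh1 by 4.20, Kcnh7 by at least 2.20 and Kcnh6 by 1.08. Kcnh2, known for cardiac repolarisation, had 10.17 and 11.21 in dorsal hemisection and C-level cord, against 4.53, 4.29 and 6.81 in distal, proximal and contralateral nerve. Its other probe gave a smaller difference of 2.95. Of the Kcnq genes, which carry the M-current that restrains repeated firing, Kcnq3 was 2.80 higher in cord, and 8.55 higher by its other probe. Kcnq1, the cardiac and epithelial member, was 1.33 higher in cord by the probe used and -1.13 by the other.

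Inward rectifier genes were higher in cord for 7 of 12 measured and lower for 1. Kcnj16 had 10.06 and 10.30 in dorsal hemisection and C-level cord, against 5.40, 4.82 and 1.88 in distal, proximal and contralateral nerve, the last not well above background (6.14). Kcnj10, with which it forms the potassium uptake channel of astrocytes, had 5.72 and 5.37 in dorsal hemisection and C-level cord and was not well above background in nerve (at least 3.41). The genes of channels opened by G proteins, which neurotransmitter receptors use for inhibition, included Kcnj3 at 11.33 and 12.17 in dorsal hemisection and C-level cord, against 5.20, 5.65 and 6.44 in distal, proximal and contralateral nerve (5.99). Kcnj5 (at least 5.55) and Kcnj6 (at least 2.08) of the same group were higher in cord as well. Kcnj9 stood at 0.45 by the probe used and at 1.95 by the other. Kcnj14, a rectifier of motor neurons in rat, was 3.97 higher, and Kcnj11, the pore of the channel closed by ATP, was 1.16 higher. Kcnj1, the kidney channel, was lower (at most -1.57) and rests on 1 spot per array. Kcnj2 was not well above background in cord (at most -0.88), and Kcnj12 (0.92) was within 2-fold. Kcnj13, a rectifier of epithelia, had 6.69 and 8.17 in dorsal hemisection and C-level cord, against 8.03, 8.60 and 10.99 in distal, proximal and contralateral nerve, so the columns overlapped (-1.78).

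The leak channel genes split. Kcnk12 (4.00), Kcnk10 (3.25) and Kcnk4 (2.74) were higher in cord, and Kcnk5 (-2.10) and Kcnk6 (-1.95) lower. Kcnk10 makes a leak channel opened by stretch and lipids, and it had 5.01 and 7.34 in dorsal hemisection and C-level cord, against 2.45, 4.18 and 2.10 in distal, proximal and contralateral nerve, of which only the proximal array was above background. Kcnk5, an acid-sensitive channel of epithelia, had 8.51 and 8.35 in dorsal hemisection and C-level cord, against 9.88, 10.10 and 11.63 in distal, proximal and contralateral nerve. The node channel Kcnk2 had 10.77 and 10.84 in dorsal hemisection and C-level cord, against 8.16, 9.86 and 10.95 in distal, proximal and contralateral nerve, so that the contralateral nerve lay above both cord samples (1.15). Kcnk1 (-0.41), Kcnk13 (0.21), Kcnk3 (0.99) and Kcnk16 (-1.06) were not called.

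Of the calcium- and sodium-activated channels, their Kcnmb subunits and the Kcne subunits, 5 of 16 genes measured were higher in cord and 3 lower. Kcnma1, the large-conductance channel, was 1.88 higher in cord, and its 3 probes ranged from 1.52 to 3.80. Of its auxiliary subunits Kcnmb2 was 2.18 higher, while Kcnmb1 (-0.93), Kcnmb3 (0.03) and Kcnmb4 (-0.04) were not called. Of the small- and intermediate-conductance genes Kcnn2 was higher (at least 2.81), and Kcnn3 (0.30), Kcnn1 (-0.02) and Kcnn4 (-0.56) were not called. Kcnt1, a channel opened by sodium, was 4.06 higher in cord and its relative Kcnt2 lower (-1.27). The single-span Kcne subunits went both ways, with Kcne5 at 4.39, Kcne3 at -1.96 and Kcne4 at -1.05. In the plot of cord and Schwann cell differences against nerve, the members at the right are those higher in cord.

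**Figure D2:**
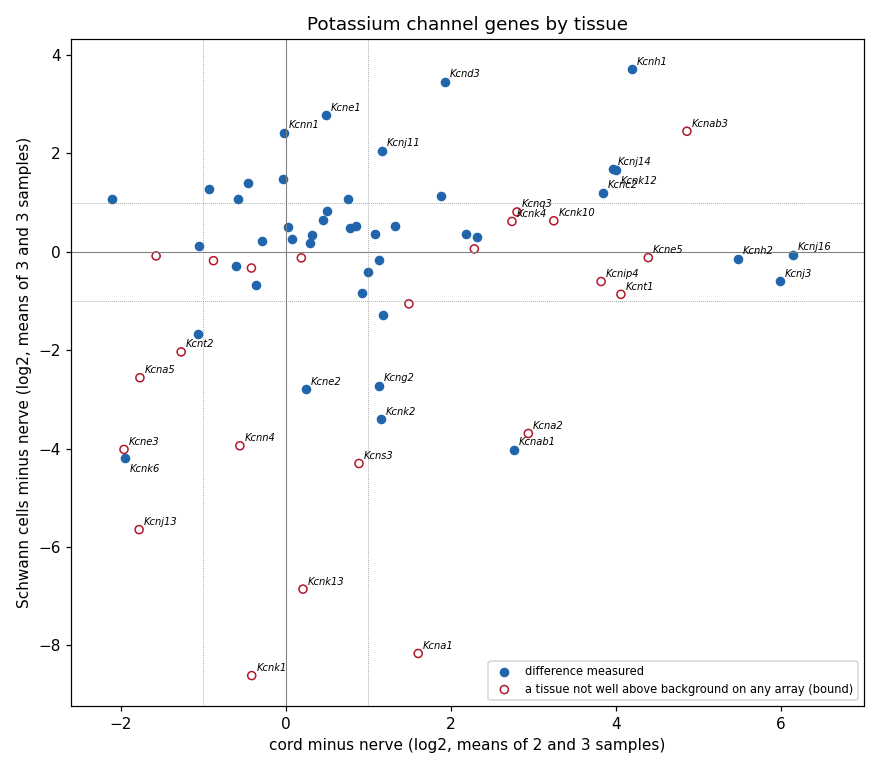
Each point is 1 reported potassium channel gene with a difference in both comparisons, at the log2 difference of cord minus nerve (horizontal axis) and of Schwann cells minus nerve (vertical axis), both from means over samples, with dotted lines at 2-fold and open symbols for bounds. Kcnk1, Kcna1 and Kcnk13 lie at the bottom, at -8.62, -8.17 and -6.86 on the Schwann cell axis, and Kcnj16 and Kcnj3 lie farthest right at 6.14 and 5.99.

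Genes that work with the channels were counted in the same comparison, by lists that include no member. The background was again 15.2% of all genes higher in cord and 15.2% lower. Other voltage-gated cation channels had 17 of 30 genes higher in cord and 1 lower (median 1.39), led by the sodium channel genes Scn1a (at least 8.26), Scn4b (6.97) and Scn8a (at least 6.49) and the calcium channel gene Cacna1b (5.57). Proteins of the node and its flanks had 8 of 14 higher and 1 lower (median 1.78), with the adhesion genes Cntn1 (7.30), Cntnap1 (4.74) and Cntn2 (3.65) and the secreted Lgi3 (6.62). Of the genes listed as channel-binding partners, whose binding was not tested here, 6 of 13 were higher and none lower (median 1.02). They included the Kcnd partners Dpp10 (4.91) and Dpp6 (at least 4.31), the sulfonylurea receptor Abcc8 (4.82) and the scaffold Akap5 (4.41). Potassium transport and buffering had 10 of 16 higher and 1 lower (median 2.59), with the transporter Slc12a5 (9.12), the gap junction gene Gjb6 (8.76) and the sodium pump subunits Atp1b2 (5.39) and Atp1b1 (4.89). The neuron, astrocyte and oligodendrocyte markers moved with these lists and with the members, and their part in the differences was not tested.

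Of 8 pairs of members that are neighbours in the RefSeq order, 4 had cord minus nerve values of the same sign and 4 of opposite sign, and these differences were not tested. Kcnk16 (-1.06) and Kcnk5 (-2.10) on chromosome 15 were both over 2-fold lower in cord, the first with columns that overlapped, and Kcna1 (1.60) and Kcna6 (0.76) on chromosome 4 were both uncalled. Kcnj16 (6.14) and Kcnj2 (at most -0.88) on chromosome 10 and Kcnj5 (at least 5.55) and Kcnj1 (at most -1.57) on chromosome 8 had opposite signs.

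The cultured Schwann cells lacked signal for many of these genes. Of 71 members measured against nerve, 20 were lower in Schwann cells, beside a background of 16.2% of all genes, and 15 were higher, beside 17.3%. The members' median was 0.06 and that of all genes 0.24. On the processed signal of the matched scans the split was 11 higher and 27 lower with medians of -0.74 and 0.04, and with normexp background correction it was 6 higher and 15 lower. Against the contralateral nerve alone, the unstimulated cells had 14 of 63 members higher (background 21.6%) and 28 lower (background 20.8%), or 9 higher and 30 lower on the processed signal. The largest difference was in Kcnk1, a weak leak channel, with 2.31, 3.38 and 1.90 in unstimulated, 1 h and 24 h Schwann cells, all not well above background, against 11.06, 11.80 and 13.66 in distal, proximal and contralateral nerve (at most -8.62). Kcna1 had 1.73, 1.76 and 1.73 in unstimulated, 1 h and 24 h cells (at most -8.17), and Kcna2 had 2.14, 3.02 and 2.21 (at most -3.69), none of them well above background. Kcnk13, a leak channel known from microglia, had 2.88, 2.70 and 3.41 in unstimulated, 1 h and 24 h cells, against 11.20, 10.59 and 9.46 in distal, proximal and contralateral nerve (at most -6.86). For Kcnk13 the probe decides: the other probe was above background on all 8 arrays and gave 7.00 in unstimulated cells, against 6.39 in contralateral nerve, where the probe used gave 2.88 in unstimulated cells, against 9.46 in contralateral nerve.

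Further members lower in Schwann cells than in nerve were Kcnj13 (at most -5.65), the silent subunit Kcns3 (at most -4.30), the leak channel Kcnk6 (-4.19), Kcnab1 (-4.02, above background in 1 of 3 cultures), Kcne3 (at most -4.02) and Kcnn4 (at most -3.94). Kcnk2 (-3.40), Kcne2 (-2.80), Kcng2 (-2.72), Kcna5 (at most -2.56), Kcnt2 (at most -2.04), Kcnk16 (-1.66), Kcnv2 (-1.28) and Kcnb2 (at most -1.06) were lower too. Leukocyte markers were above background for 4 of 6 genes in each culture, at a mean log2 level of 5.14 to 5.40, and for 6 of 6 in each nerve sample, at 11.13 to 13.06. The part of leukocytes, and of axons, in the nerve levels of these members was not tested. Neuron markers were higher in the cultures than in nerve for 4 of 7 genes and lower for 1 (median 1.70). Of the node and flank proteins 3 of 14 were higher and 6 lower in Schwann cells (median -0.28), and of other voltage-gated cation channels 3 of 25 were higher and 4 lower (median 0.41). Of the channel-binding partners 1 of 12 was higher, the scaffold Akap5 at 8.41, and 2 lower (median 0.05), and of potassium transport genes 1 of 16 was higher and 5 lower (median 0.09). For these lists the background was 17.3% of all genes higher and 16.2% lower.

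A smaller set stood higher in the cultures. Kcnh1 had 8.79, 7.81 and 8.93 in unstimulated, 1 h and 24 h Schwann cells, against 4.84, 5.64 and 3.91 in distal, proximal and contralateral nerve (3.71). Kcnd3, an A-type channel gene, had 8.05, 8.21 and 7.80 in unstimulated, 1 h and 24 h cells, against 4.05, 4.18 and 5.46 in distal, proximal and contralateral nerve (3.45). The Kcne1 subunit (2.77), Kcnab3 (at least 2.45), the small-conductance channel Kcnn1 (2.42), Kcnh5 (2.14), Kcnj11 (2.05), Kcnj14 (1.67), Kcnk12 (1.66), Kcnmb4 (1.49), Kcnmb1 (1.28), Kcnc2 (1.20), Kcnrg, a regulator of potassium channels (1.08), and Kcna6 (1.07) followed. Kcnh5 was above background only in the 24 h culture and on no cord or nerve array. Its differences rest largely on values not well above background, and its direction against cord did not hold on the processed signal. Of the 15, 7 were higher in Schwann cells than in cord as well: Kcnd3, Kcne1, Kcnh5, Kcnmb1, Kcnmb4, Kcnn1 and Kcnrg. This pattern was not counted over all genes. Kcnmb4, a subunit of the large-conductance channel best known from neurons, had 11.60, 11.25 and 12.03 in unstimulated, 1 h and 24 h cells, against 9.36, 10.36 and 10.71 in distal, proximal and contralateral nerve.

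Set against Schwann cells, cord had 45 of 80 members higher (background 20.8%) and 10 lower (background 24.5%), with a median of 1.70 beside -0.27 for all genes. On the processed signal of the matched scans the split was 56 higher and 4 lower, and the median of all genes was 0.06. The cord was above both nerve and Schwann cells for 32 members and below both for 3 (Kcne4, Kcnj1 and Kcnk5). Schwann cells were below both other tissues for 17 members, and nerve was above both for 4: Kcna5, Kcne3, Kcnk6 and Kcnt2. The share of all genes with each of these patterns was not counted, so they are not shown to be particular to the members. The largest differences from Schwann cells were those of Kcna1 (at least 9.77), Kcnk1 (at least 8.20), Kcnk13 (at least 7.07), Kcnab1 (6.79, above background in 1 of 3 cultures) and Kcna2 (at least 6.63). The value of Kcnk13 holds for the probe used only: its other probe averaged 6.23 in cord and 6.88 in Schwann cells. The plot of 12 members by sample shows these patterns.

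**Figure D3:**
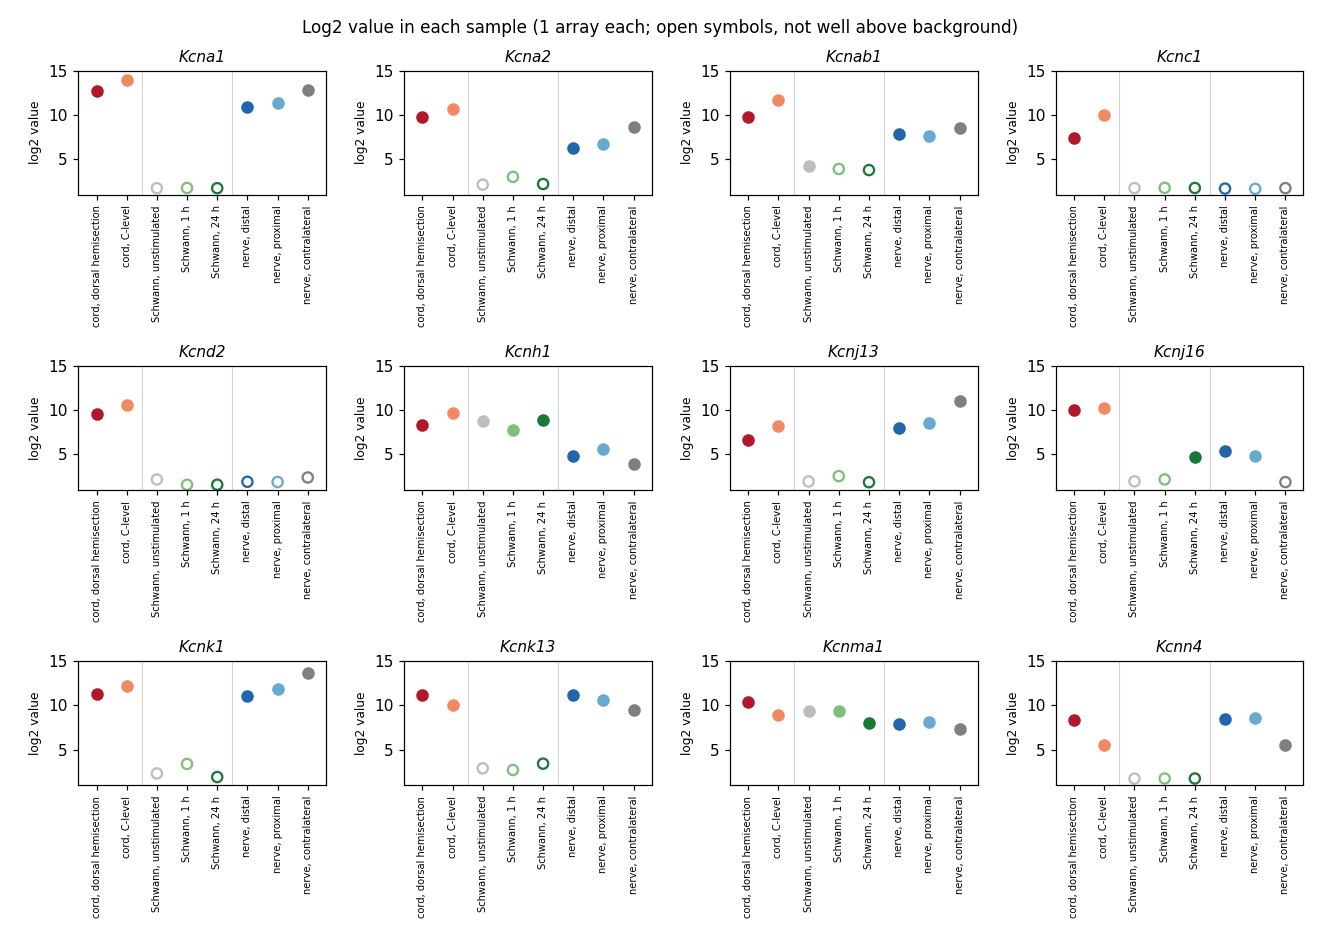
Log2 level (vertical axis) of 12 potassium channel genes in each of the 8 samples (horizontal axis, 1 array each), with open symbols where the gene was not well above background. Kcna1 and Kcnk1 are high in cord and nerve and not detected in Schwann cells, Kcnc1 and Kcnd2 are detected only in the 2 cord samples, and Kcnn4 is higher in the dorsal hemisection and in both injured nerve segments than in their controls.

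On day 1 after the cut, more potassium channel genes were lower than higher in the distal nerve when set against the contralateral nerve. The lower ones included Kcna1 and Kcna2 and 4 of 8 leak channel genes measured, while the leak channel Kcnk13 and the auxiliary Kcnab2 were higher. Of 65 members measured, 17 were at least 2-fold lower, beside a background of 14.3% of all genes, and 9 higher, beside 13.9%, with a median of -0.02 beside 0.02 for all genes. In the proximal segment 15 of 68 were lower (background 11.8%) and 13 higher (background 11.7%), with a median of 0.05 beside -0.0012. With normexp background correction the splits were 3 higher and 11 lower in the distal and 2 higher and 10 lower in the proximal segment. Both comparisons use the same contralateral array, so values of the 2 segments are given side by side.

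Kcna1 and Kcna2 were among the lower genes, and which cells of the nerve held their RNA was not tested. Kcna1 had 10.89 in the distal and 11.41 in the proximal nerve, against 12.87 in the contralateral nerve, a log2 difference of -1.98 ± 0.08 distally and -1.46 ± 0.08 proximally. Kcna2 had 6.32 in the distal and 6.76 in the proximal nerve, against 8.68 in the contralateral nerve (-2.36 ± 0.11 and -1.91 ± 0.14). Both injured segments lay below the contralateral nerve for both genes, by many times the spot error. Kcna5 (-2.31 and -1.79 in the distal and proximal nerve), Kcnd3 (-1.41 and -1.28), Kcnv1 (-1.44 and -2.13) and Kcnh2 (-2.28 and -2.53) were lower in both segments as well. The other probe of Kcnh2 gave only -0.32 in the distal and -0.89 in the proximal nerve. Kcnip4 had 3.65 in the distal nerve and was not well above background in the proximal nerve, against 6.56 in the contralateral nerve (-2.90 ± 0.41 and at most -4.28). Kcnh8, an ether-a-go-go relative, was measured only in the contralateral nerve, at 5.81 (at most -3.31 and -2.71 in the distal and proximal nerve).

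Among leak channels, Kcnk1 had 11.06 in the distal and 11.80 in the proximal nerve, against 13.66 in the contralateral nerve (-2.60 ± 0.08 and -1.86 ± 0.08). Kcnk2, the node channel, had 8.16 in the distal and 9.86 in the proximal nerve, against 10.95 in the contralateral nerve (-2.80 ± 0.12 and -1.09 ± 0.08). Its other well-measured probe gave -0.64 and -0.45. Kcnk16 (-2.32 and -1.73 in the distal and proximal nerve) and Kcnk5 (-1.74 and -1.53) were lower too. Kcnj13 had 8.03 in the distal and 8.60 in the proximal nerve, against 10.99 in the contralateral nerve (-2.96 ± 0.12 and -2.39 ± 0.09), and the subunit gene Kcne2 stood at -1.92 and -2.14. Lower only in the distal nerve were Kcnmb4 (-1.34 ± 0.08, against -0.35 in the proximal nerve) and Kcnj3 (-1.24 ± 0.22, against -0.79), a difference between segments that stayed within 2-fold for both.

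The higher members were led by Kcnj16 and Kcnn4. Kcnj16 had 5.40 in the distal and 4.82 in the proximal nerve and was not well above background in the contralateral nerve (at least 3.53 and 2.94). Kcnn4, the calcium-activated channel of leukocytes, had 8.44 in the distal and 8.55 in the proximal nerve, against 5.52 in the contralateral nerve (2.92 ± 0.31 and 3.03 ± 0.30). Kcnk13 had 11.20 in the distal and 10.59 in the proximal nerve, against 9.46 in the contralateral nerve (1.73 ± 0.08 and 1.13 ± 0.08), and its other probe gave 1.04 and 0.74. Kcne3 had 8.37 in the distal and 7.84 in the proximal nerve, against 6.52 in the contralateral nerve (1.85 ± 0.21 and 1.33 ± 0.21). Kcna3, the channel of T lymphocytes, had 3.90 in the distal and 4.55 in the proximal nerve and was not well above background in the contralateral nerve (at least 1.30 and 1.95). Kcnab2 (1.60 ± 0.42 and 1.08 ± 0.43 in the distal and proximal nerve) and the silent subunit Kcng2 (1.56 ± 0.21 and 1.17 ± 0.21) completed the 7 members higher in both segments. How many of all genes were higher in both was not counted. Called only in the distal nerve were Kcnip1 (1.28 ± 0.42, against 0.94 in the proximal nerve) and Kcnh6 (1.12 ± 0.43, against 0.97).

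**Figure D4:**
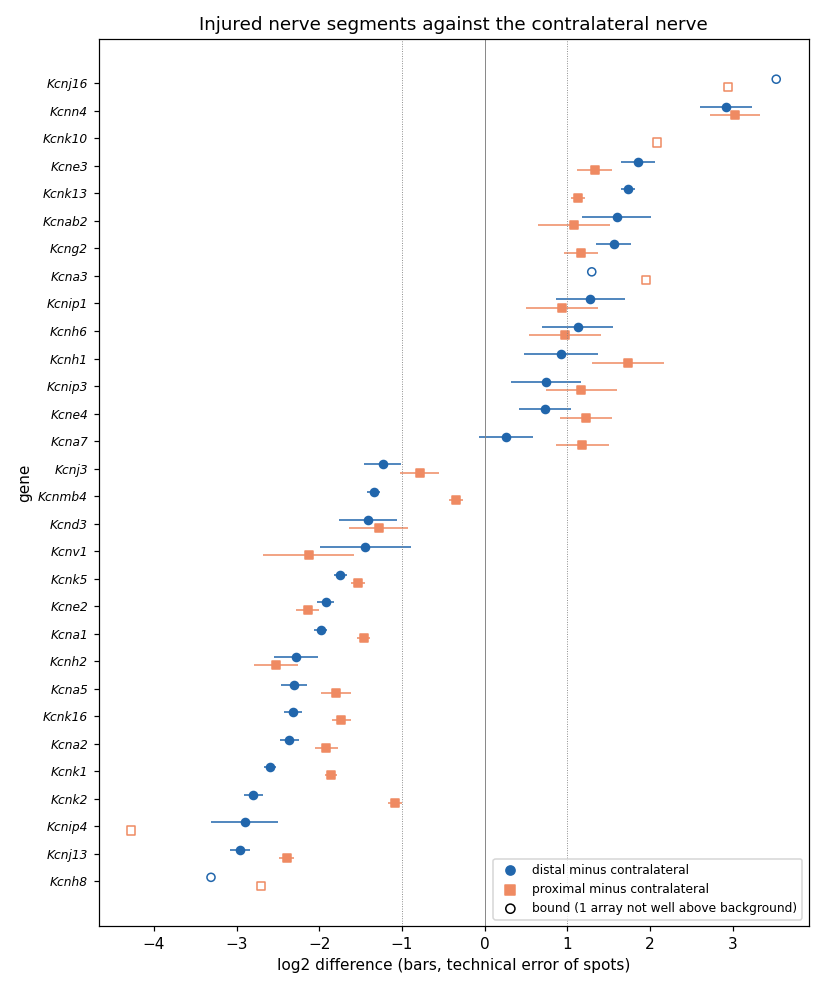
Log2 difference from the contralateral nerve (horizontal axis) of the distal (circles) and proximal (squares) nerve segment on day 1, for 30 of the 32 potassium channel genes called in either segment (vertical axis), with bars for the technical error of spots, open symbols for bounds and dotted lines at 2-fold. Kcnj16 and Kcnn4 lie at the top, at 3.53 and 2.92 in the distal nerve, and Kcnj13 and Kcnh8 at the bottom, with no gene called in opposite directions.

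In the proximal nerve alone, 6 members were called higher. Kcnk10 had 4.18 in the proximal nerve and was not well above background in the other 2 nerve samples (at least 2.08), and Kcnh1 stood at 1.73 ± 0.43 proximally and 0.93 distally. Kcne4 (1.22 ± 0.32), Kcna7 (1.18 ± 0.32) and Kcnip3 (1.17 ± 0.43) followed. Kcna7, known from muscle, gave the opposite sign with its other probe (-0.60). Skeletal muscle markers were higher in the proximal nerve for 6 of 6 genes (median 5.46, mean level 12.40 in the proximal, 8.85 in the distal and 7.00 in the contralateral nerve), and their part in these 6 members was not tested. Leukocyte markers were higher for 6 of 6 genes in the distal nerve (median 2.10) and for 5 of 6 in the proximal nerve (1.58), at mean levels of 13.06 in the distal and 12.63 in the proximal nerve, against 11.13 in the contralateral nerve. Neuron markers were lower for 3 of 6 in each segment (-1.09 and -0.91), and myelinating Schwann cell markers for 3 of 4 in the distal and 2 of 4 in the proximal nerve (-1.57 and -1.19). Cell cycle markers were higher for 2 of 2 genes in each segment (4.84 and 4.13). Schwann cell markers were lower for 4 of 5 and 3 of 5 (-1.9995 and -1.63) with 1 higher in each, fibroblast markers for 3 of 5 and 2 of 5 (-1.13 and -0.94), smooth muscle and pericyte markers for 3 of 6 and 2 of 6 (-1.08 and -0.64), and adipocyte markers for 1 of 3 and 3 of 3 (-0.82 and -1.38). The part of these cells in the members' differences was not tested.

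Several members of wide interest stayed within 2-fold of the contralateral nerve in both segments. Kcnab1 stood at -0.60 ± 0.10 in the distal and -0.91 ± 0.12 in the proximal nerve, and Kcnma1 at 0.63 ± 0.12 and 0.88 ± 0.12. Kcnk3 (-0.84 and -0.77 in the distal and proximal nerve), Kcnj12 (-0.89 and -0.69), Kcna6 (-0.28 and -0.34), Kcnmb2 (-0.05 and -0.22) and Kcnt1 (-0.46 and 0.24) were not called either. Kcnq3 (at least 0.58 and 0.20), Kcnmb1 (at least 0.74 and 0.76) and Kcnj2 (at least 0.01 and 0.29) had only bounds. Kcna4, Kcnc1, Kcnd2, Kcnj10 and Kcnn2 were not measured in nerve.

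Most of the listed genes that work with the channels were uncalled in injured nerve, and more were lower than higher. The background was 14.3% of all genes lower and 13.9% higher in the distal nerve, and 11.8% and 11.7% in the proximal nerve. Of the node and flank proteins 6 of 13 were lower and 1 higher in the distal nerve (median -0.89), with the secreted Lgi4 (-2.78) and Lgi1 (-2.76), the adhesion gene Nfasc (-2.25) and, in the other direction, Cntn1 (at least 2.73). In the proximal nerve 5 of 13 were lower and 1 higher (median -0.37), with Cntn2 at -2.68 and Lgi1 at -2.27. Other voltage-gated cation channels had 6 of 24 lower and none higher in the distal nerve (median -0.39), led by the sodium channel gene Scn9a (-2.90) and the calcium channel subunits Cacnb4 (-2.38) and Cacnb3 (-2.27). Proximally 6 of 23 were lower and 3 higher (median -0.41), the 3 being Scn3b (2.53), the muscle calcium channel Cacna1s (2.52) and Scn4b (2.46). Of the channel-binding partners 3 of 12 were lower distally and 1 of 12 proximally (medians -0.41 and -0.50), with the Kcnb partner Amigo1 at most -2.66 and -2.62. Potassium transport genes had 4 of 15 lower and 1 higher distally and 3 of 16 lower and 1 higher proximally (medians -0.15 and -0.50). The sodium pump subunit Atp1b1 stood at 2.14 and 1.14 in the distal and proximal nerve.

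Set directly against each other, the segments differed in 3 of 68 members. Kcnip4 was higher distally (at least 1.38), beside a background of 1.24% of all genes, and Kcnk2 (-1.71 ± 0.11) and Kcnk10 (at most -1.68) were lower distally, beside 1.94%. The other well-measured probe of Kcnk2 gave -0.19, and that of Kcnk10, measured on 3 of the 8 arrays, -1.55. The muscle gene set separated the same 2 segments, as the levels above show, and so did the astrocyte marker Gfap (-1.20, lower distally). Their part in these 3 members was not tested.

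In the dorsal hemisection sample, more potassium channel genes were lower than higher when set against the C-level cord. Of 78 members measured, 20 were at least 2-fold lower, beside a background of 9.24% of all genes, and 6 higher, beside 10.2%. The members' median was -0.54 and that of all genes -0.04. Of the 41 members higher in cord than in nerve, 16 were lower in the dorsal hemisection and 1 (Kcnma1) was higher. The same split among all genes higher in cord than in nerve was not counted. The cord arrays enter both of these comparisons. Neuron markers were lower in the dorsal hemisection for 6 of 7 genes (median -1.34, mean level 11.51 against 13.05 in the C-level cord), and their part in the members' differences was not tested.

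Kcnc1 had 7.44 in the dorsal hemisection, against 10.02 in the C-level cord (-2.57 ± 0.09). The auxiliary genes Kcnab3 (-2.22 ± 0.11) and Kcnab1 (-1.97 ± 0.06) were lower, and Kcnab2 stood at -0.52. Kcna4 had 4.15 in the dorsal hemisection, against 6.38 in the C-level cord (-2.22 ± 0.24), and Kcna1 had 12.66 in the dorsal hemisection, against 14.00 in the C-level cord (-1.33 ± 0.05). Kcna2 (-0.91 ± 0.07) stayed within 2-fold, while Kcnb2 was lower (-1.35 ± 0.19). Kcnd2 was just past 2-fold (-1.004 ± 0.066, and -1.54 by its other probe). Kcnj6, a pore subunit of G protein-opened channels, had 5.56 in the C-level cord and was not well above background in the dorsal hemisection (at most -2.71). Kcnk10 had 5.01 in the dorsal hemisection, against 7.34 in the C-level cord (-2.33 ± 0.18), and the sodium-activated Kcnt1 had 7.61 in the dorsal hemisection, against 9.35 in the C-level cord (-1.74 ± 0.09).

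Further members lower in the dorsal hemisection were Kcnh8 (at most -1.66), Kcns3 (-1.60 ± 0.09), Kcnmb2 (-1.52 ± 0.11), Kcnip1 (-1.51 ± 0.10), Kcnj13 (-1.48 ± 0.11), Kcnn2 (-1.32 ± 0.27), Kcnh1 (-1.28 ± 0.08), Kcnk4 (-1.24 ± 0.19) and Kcnh2 (-1.04 ± 0.06). The glial rectifiers were not among them: Kcnj16 stood at -0.25 ± 0.07 and Kcnj10 at 0.35 ± 0.23, and astrocyte markers had a median of -0.05 with 1 of 5 lower. Kcnk1 (-0.91), Kcnj12 (-0.85), Kcnq3 (-0.79), Kcnk3 (-0.67), Kcna6 (-0.54), Kcnk2 (-0.07), Kcnmb4 (-0.04), Kcnip3 (0.04), Kcne4 (0.15), Kcnmb1 (at least 0.70) and Kcna3 (0.74) were not called.

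The higher members were few. Kcnn4 had 8.34 in the dorsal hemisection, against 5.56 in the C-level cord (2.78 ± 0.21). Kcnk6, a leak channel of internal membranes, had 10.73 in the dorsal hemisection, against 8.90 in the C-level cord (1.83 ± 0.08). Kcnk13 had 11.22 in the dorsal hemisection, against 10.03 in the C-level cord (1.19 ± 0.07, and 0.54 by its other probe). The auxiliary Kcnmb3 (1.11 ± 0.29) and Kcne3 (1.03 ± 0.22) were higher as well, Kcne3 with 6.13 in the dorsal hemisection, against 5.10 in the C-level cord. Kcnma1 stood at 1.44 ± 0.08 by the probe used, but at -1.14 and -0.89 by its other 2 probes, so its direction depends on the probe. Leukocyte markers were higher in the dorsal hemisection for 6 of 6 genes (median 1.64, mean level 12.30 against 10.28 in the C-level cord), fibroblast markers for 4 of 5 (2.12) myelinating Schwann cell markers for 4 of 4 (2.42) and cell cycle markers for 2 of 2 (3.21), and their part in these members was not tested. Skeletal muscle markers were lower for 4 of 6 (-1.80) and adipocyte markers for 3 of 3 (-2.33). Kcnn4, Kcnk13 and Kcne3 were thus the members called higher in the dorsal hemisection and in both injured nerve segments. In each of these comparisons most leukocyte markers and 2 of 2 cell cycle markers were higher too. Of the microglia markers, Aif1 was called higher in each and Cx3cr1 in none. The part of these cells in these members was not tested. The share of all genes called higher in the same comparisons was not counted.

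**Figure D5:**
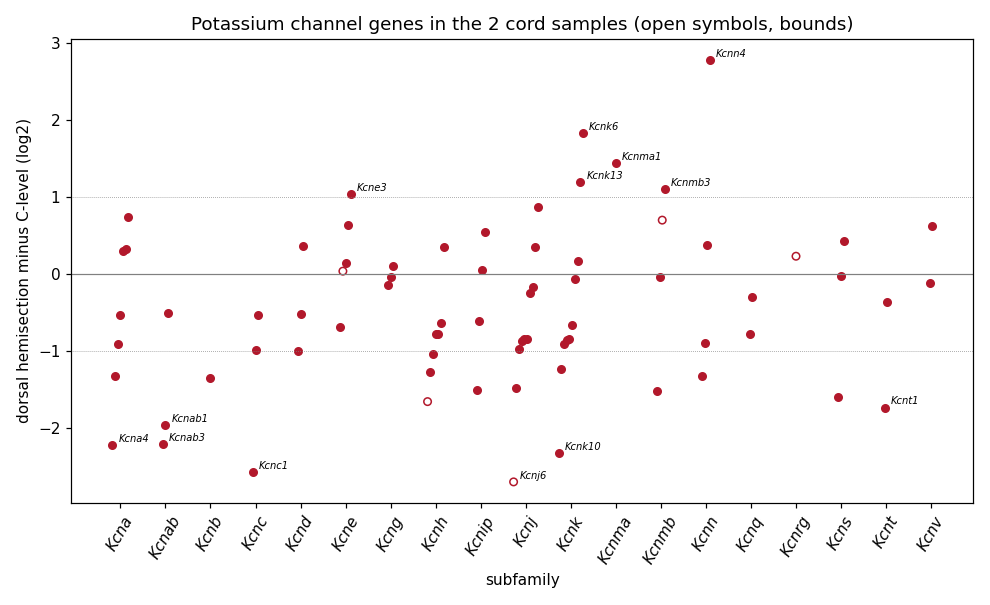
Log2 difference of the dorsal hemisection minus the C-level cord (vertical axis) for each reported potassium channel gene measured, grouped by subfamily (horizontal axis), with open symbols for bounds and dotted lines at 2-fold. Most points lie below 0, with Kcnj6 and Kcnc1 lowest at -2.71 and -2.57, and Kcnn4 lies highest at 2.78.

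The partner lists had more genes lower than higher in the dorsal hemisection. Their background was 9.24% of all genes lower and 10.2% higher. Other voltage-gated cation channels had 10 of 30 lower and none higher (median -0.69), led by Scn1a (-2.28), the calcium channel subunits Cacna2d3 (-1.99) and Cacnb4 (-1.77). Channel-binding partners had 4 of 13 lower and none higher (median -0.66): Dpp6 (-1.51), Akap5 (-1.33), Lynx1 (-1.26) and Dpp10 (-1.01). Of potassium transport genes 4 of 16 were lower and 1 higher (median -0.55), with Slc12a5 at -1.94, Atp1b1 at -1.67, Gjb6 at -1.52 and Slc12a7 at 1.59. Of node and flank proteins 2 of 14 were lower (Lgi3 at -1.29 and Cntnap1 at -1.16) and 1 higher (Gldn, made by Schwann cells, at 1.46), with a median of -0.52.

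In Schwann cells given S100A8/A9, few potassium channel genes moved past 2-fold. At 1 h, 2 of 47 members measured were lower than in unstimulated cells, beside a background of 1.34% of all genes, and none was higher, beside 1.69%. Both were bounds, among them Kcnh8 (at most -1.49). At 24 h, 1 of 49 was lower, beside 0.626%, and 2 higher, beside 0.635%. Both times share the unstimulated culture, and 24 h against 1 h gave 5 of 48 higher (background 1.86%) and 1 lower (background 2.03%). The members' medians were -0.11, 0.03 and 0.12 for the 3 comparisons, beside -0.02, 0 and 0.02 for all genes.

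Kcnma1 had 9.40, 9.39 and 7.96 in unstimulated, 1 h and 24 h cells (-1.44 ± 0.10 at 24 h against unstimulated). Its other 2 probes gave 0.82, well above background on 2 of the 8 arrays, and -0.20, above it on 5, so the fall at 24 h rests on 1 probe. Kcnj16 was not well above background in unstimulated and 1 h cells and had 4.71 at 24 h (at least 1.40 against unstimulated). Kcnj1 had 5.17 at 24 h and no signal well above background before (at least 1.85), on 1 spot per array. Kcnh8 had 5.54 in unstimulated cells, was not well above background at 1 h, and had 6.03 at 24 h (at least 1.99 against 1 h). Kcnmb1 (1.23 ± 0.52), Kcnj11 (1.19 ± 0.34) and Kcnh1 (1.11 ± 0.13) were higher at 24 h than at 1 h, but stood between -0.98 and 0.89 against unstimulated cells at either time.

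The other members measured in Schwann cells stayed within 2-fold of the unstimulated culture. Kcnmb4 stood at -0.35 ± 0.06 and 0.42 ± 0.05 at 1 h and 24 h, Kcna6 at -0.36 ± 0.14 and 0.18 ± 0.10, and Kcnk2 at -0.10 ± 0.36 and 0.71 ± 0.26. Kcnk3 (-0.08 and -0.14 at 1 h and 24 h), Kcnab2 (-0.16 and 0.38), Kcnmb2 (0.04 and 0.13), Kcnip3 (0.20 and -0.02) and Kcne4 (-0.01 and -0.05) were as close. None of the node, channel-binding or other cation channel genes was called at 24 h, of 10, 10 and 21 measured, nor any of 14 potassium transport genes. Over all genes 0.635% were higher and 0.626% lower at 24 h. Kcna1, Kcna2, Kcnk1, Kcnk13, Kcnn4, Kcnj10 and the rest of the 32 members without signal in Schwann cells by the probe used could not be compared. For Kcnk13 the other probe stood at -0.34 and -0.03 at 1 h and 24 h against unstimulated cells.

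In none of the 3 tissue comparisons were 15 members called by the probe used: Kcna3, Kcna7, Kcnc4, Kcnd1, Kcng1, Kcng3, Kcnh3, Kcnh4, Kcnh8, Kcnip3, Kcnj2, Kcnj9, Kcnmb3, Kcnn3 and Kcns2. Among them the small-conductance channel Kcnn3 had 8.33 and 7.96 in dorsal hemisection and C-level cord, 8.08, 8.06 and 7.95 in unstimulated, 1 h and 24 h Schwann cells, and 7.84, 7.93 and 7.77 in distal, proximal and contralateral nerve. Kcnh3, an ether-a-go-go relative of the forebrain, stood between 9.06 and 9.40 in cord, between 8.76 and 9.03 in Schwann cells and between 9.49 and 9.79 in nerve. Of the 20 members with several probes, the probes of 13 differed by at least 2-fold between cord and nerve and those of 4 in sign, and 62 members had 1 probe. Of the 9 members with several probes called between unstimulated Schwann cells and contralateral nerve, the probes of 4 (Kcnc2, Kcnip1, Kcnk13 and Kcnma1) disagreed in sign. The disagreeing probes of Kcnc2, Kcnip1 and Kcnma1 read 2.93 or lower in both samples. They were above background on only 2, 3 and 2 of the 8 arrays, and that of Kcnk13 on all 8.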

How the data were processed

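RNA of 8 samples, 1 array each, was measured on a 1-colour Agilent rat array. The deposited value table holds log2 values that the authors normalized, with every column at a median of 8.03, and no source used here gives the baseline of that scaling. The deposited scanner files hold spot intensity values and background flags from, per the file headers, Feature Extraction 10.7.3.1 with build rn4; the submitters' processing notes name Agilent Feature Extraction 10.5. All 8 arrays share 1 slide and scan.
Each column was matched to a scan by rank correlation of its probes (best rho 1 after rounding, next at most 0.993), and 7 scans were recorded under another sample. Levels came from the value table by heading, and flags came from the matched scan. Of 30367 probes on the array 24894 were in the table, beside 44 controls, and 15212 of these matched a RefSeq symbol (18005 on the whole array) through their accession. Names and promoters are from RefSeq, assembly GRCr8; rn4 coordinates were not used. A few further genes, 3 of them among the 82 members, enter the counts and medians but are not reported here.
Differences were taken over all 12764 genes, with a threshold of 2-fold. Technical errors were pooled in 10 bins of similar signal per array. No test applies to 1 array per group, and the number of arrays limits the precision. On simulated data for distal minus contralateral nerve, over 12764 genes, 98%, 99.5% and 100% of 200 genes changed by a log2 of 1.5, 2 and 3 were recovered. These changes all lie past the 2-fold threshold. With 1 array per group, the recovery does not cover variation between animals or dissections and does not measure the sensitivity of the comparison.
The text names all members past 2-fold, at most the 10 largest per direction, the 3 highest per subfamily and tissue, and a fixed list of members; further called members are named to complete a count, chosen after their values were seen. Partner lists are given by counts and up to 4 largest values. Members and lists were chosen with earlier results of these data known.
Alternatives were the processed signal and normexp (offset 50) of the matched scans, the scans as recorded, the mean of probes, no filter or bound, a filter on all arrays, and leaving out a nerve column. Python 3.11.15, numpy 2.4.6, pandas 2.3.3, matplotlib 3.10.9, R 4.3.3 and limma 3.58.1 were used.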

Additional observations from a re-analysis of the deposited data

Results flagged for a closer look

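Probes of 3 potassium channel genes lay outside the value table and so outside every comparison, but their spots were well above background on some arrays. Levels here are log2 over the 75th percentile of the array, under the column each scan matched. Kcnf1, a silent voltage-gated subunit, was above background on 4 of the 8 arrays, at -5.96 in the dorsal hemisection, -6.20 and -5.40 in unstimulated and 1 h Schwann cells and -6.63 in the proximal nerve. Kcnj4, an inward rectifier, was above background on 3 arrays, at -5.99 in the dorsal hemisection, -6.62 in 24 h Schwann cells and -6.72 in the proximal nerve. Kcnk18, a leak channel of sensory neurons, was above background on 1 array, at -4.82 in unstimulated Schwann cells. The other 4 genes outside the table were above background on none.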

How the results depend on the processing

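Of 159 values for named members, the direction held in all with normexp background correction of the matched scans, in all without filter or bound, in all but 1 with the processed signal (for Kcnh5, cord minus Schwann cells gave 0.0043) and in all but 1 with the mean of probes (for Kcnma1, dorsal hemisection minus C-level cord gave -0.20). Sizes held less well than directions. Without a change of direction, the size moved for 155 of 159 values with normexp and for 118 with the processed signal. It moved for 32 with the mean of probes and for 35 without filter or bound. Leaving out any 1 nerve column moved 35 of 35 values. The counts of called members stayed within 1.5 times with the mean of probes and when 1 nerve column was left out (47 to 51 for cord minus nerve and 35 to 37 for Schwann cells minus nerve). Normexp, which shrinks differences of dim probes, lowered every count: to 14 for distal and 12 for proximal minus contralateral nerve, 1 for distal minus proximal, 17 for the 2 cord samples, 0, 1 and 1 for 1 h and 24 h minus unstimulated cells and 24 h minus 1 h, 32 and 20 for C-level cord and unstimulated Schwann cells minus contralateral nerve, and 25, 21 and 35 for cord minus nerve, Schwann cells minus nerve and cord minus Schwann cells. The main counts in the same order were 26, 28, 3, 26, 2, 3, 6, 55, 42, 48, 35 and 55. Keeping only genes above background on all arrays, which tests fewer genes, gave 1 for distal minus proximal nerve, 0 and 1 for 1 h and 24 h minus unstimulated cells, 35 and 20 for C-level cord and unstimulated Schwann cells minus contralateral nerve, and 27, 17 and 21 for the 3 tissue comparisons. Without filter or bound the Schwann cell counts became 7, 5 and 12 (1 h and 24 h minus unstimulated, 24 h minus 1 h), and with the processed signal distal minus proximal nerve had 5 and 1 h minus unstimulated 4. For these the cause was not tested. No paired analysis was possible because each group has 1 array. Signal over background limits the bounds, which cover 13 of 48 calls for cord minus nerve.
If the scans were taken under the samples they are recorded for, other arrays would be compared, and the counts became 47 and 64 for distal and proximal minus contralateral nerve, 33 for distal minus proximal, 3 for the cord pair, 27, 56 and 57 for the Schwann cell comparisons, 22 for cord minus nerve and 4 for Schwann cells minus nerve. Of 145 named values 91 then changed direction. For distal minus contralateral nerve these were Kcnj16 -4.62, Kcnn4 -0.075, Kcnab2 -0.61, Kcng2 -0.58, Kcna3 -0.97, Kcnip1 -1.40, Kcnh6 -0.77, Kcnj13 0.93, Kcnk16 0.049 and Kcna5 0.0036. For proximal minus contralateral nerve these were Kcnn4 -5.50, Kcnj16 -7.01, Kcnk10 -2.64, Kcna3 -1.92, Kcnh1 -1.02, Kcne3 -3.60, Kcne4 -0.0022, Kcna7 -1.05, Kcnip3 -1.14 and Kcng2 -4.62. For distal minus proximal nerve this was Kcnk2 2.74. For dorsal hemisection minus C-level cord these were Kcnab3 0.038 and Kcnab1 0.57. For 1 h minus unstimulated Schwann cells this was Kcnh8 2.51. For 24 h minus unstimulated Schwann cells these were Kcnj1 -0.69 and Kcnma1 0.85. For 24 h minus 1 h Schwann cells these were Kcnh8 -1.18, Kcnj1 -1.35 and Kcnma1 1.68. For C-level cord minus contralateral nerve these were Kcnj16 -5.95, Kcnc1 -5.01, Kcnd2 -6.83, Kcnab3 -2.02, Kcnj3 -6.42, Kcnk10 -2.92, Kcnk12 -2.16, Kcnj14 -2.18, Kcnk5 3.06, Kcnj1 1.41 and Kcnh8 2.38. For unstimulated Schwann cells minus contralateral nerve these were Kcnh1 -2.76, Kcne1 -0.99, Kcnab3 -3.96, Kcnd3 -2.67, Kcnj14 -3.31, Kcnma1 -2.13, Kcnk12 -3.32, Kcnk1 0.55, Kcnj13 1.51 and Kcna5 0.62. For cord minus nerve these were Kcnd2 -2.34, Kcnc1 -1.73, Kcnj16 -2.80, Kcnj3 -2.20, Kcnj5 -2.11, Kcnh2 -1.86, Kcne5 -2.38, Kcnk5 1.71 and Kcnj1 0.060. For Schwann cells minus nerve these were Kcnh1 -0.44, Kcnd3 -0.79, Kcne1 -1.10, Kcnj14 -0.40, Kcnk12 -0.26, Kcnk1 4.03, Kcna1 3.80, Kcnk13 1.56, Kcnj13 3.25, Kcns3 1.90, Kcnk6 0.76, Kcnab1 2.34, Kcne3 0.72, Kcnn4 0.12 and Kcna2 2.34. For cord minus Schwann cells these were Kcna1 -9.92, Kcnk1 -9.77, Kcnk13 -7.32, Kcnab1 -5.91, Kcna2 -6.02, Kcnj3 -3.41, Kcnd2 -2.42, Kcnj16 -2.45, Kcnh2 -3.02, Kcnk5 1.70, Kcnn1 1.76, Kcne1 1.59, Kcnmb1 1.20, Kcnrg 0.34, Kcnd3 2.05, Kcnmb4 1.50 and Kcnh5 1.17.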
